A study of Homo sapiens with 4 samples.

Results

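The genes that write, copy and erase DNA methylation were examined for methylation differences at their own loci in clones of SKOV3, an established human ovarian cancer cell line. The set comprised 10 genes, DNMT1, DNMT3A, DNMT3B, DNMT3L, TET1, TET2, TET3, UHRF1, UHRF2 and TDG, out of 20098 protein-coding genes of GENCODE on GRCh37, the build also named hg19. A tile of 1 kb was assigned to a gene when it overlapped the gene span extended by 5 kb on each side. Of the 72436 distinct tiles listed as differentially methylated in the series, 47 met this rule. Reduced representation bisulfite sequencing (RRBS) was run on 4 libraries, 1 per clone. ShC-S carried a control shRNA and had the mesenchymal-like (M) phenotype, and ShLy75-S carried an shRNA against LY75, an endocytic receptor, and had the epithelial-like (E) phenotype. Ly75-KO-S, also of E phenotype, had lost LY75 through CRISPR, and Ly75-OV-S, of M phenotype, expressed LY75 again in the shRNA-suppressed cells. All 4 clones shared the SKOV3 background and culture medium. The second single comparison set a CRISPR clone against a clone that carried an shRNA and a LY75 transgene, so the state of LY75 and these differences between the clones cannot be told apart in it.

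Each of the 3 deposited tables lists the tiles of 1 comparison. ShC-S was compared with ShLy75-S (the knockdown comparison), Ly75-KO-S with Ly75-OV-S (the knockout comparison), and all 4 libraries were compared in a mix of the M clones against the E clones. The tables hold no methylation level and no read number per library, so the depth behind each tile is unknown. A listed tile had passed a difference of 25 percentage points at a q-value of 0.01, as the names of the tables give it, while the methods name a looser limit on the adjusted p-value. The direction and size of each difference are results of the authors' own comparisons and were not used, so a listed tile means here only that methylation differed past that limit. Since the tables give no value per library, no replicate error could be computed and no test between conditions was made, although the mix set 2 M clones against 2 E clones. In the single comparisons, with 1 library on each side, a difference between libraries cannot be told apart from a difference between clones. Expression was not measured in these files, and markers of the cell type could not be checked.

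As background, DNMT3A and DNMT3B place methyl groups on unmethylated CpGs, and DNMT3L, which has no catalytic activity of its own, binds and stimulates them. DNMT1 copies the pattern onto the new strand at replication, guided by UHRF1, which reads hemimethylated CpGs. The TET enzymes oxidise methylated cytosine and TDG excises the oxidised bases, after which base excision repair restores an unmodified cytosine. Promoters of widely expressed genes usually lie in CpG islands that stay unmethylated, whereas gene bodies and repeats are largely methylated in most cells.

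Listed tiles lay at 8 of the 10 genes, and TET2 and UHRF2 had none. In the knockdown comparison 28 tiles at 7 genes were listed, in the knockout comparison 22 tiles at 8 genes, and in the mix 16 tiles at 6 genes. Over all protein-coding genes, 60.5% had a listed tile in the knockdown comparison, 46.9% in the knockout comparison, 38.4% in the mix and 70.7% in any of the 3. The counts at the 10 genes lay above these shares, and 9 of the 10 also had more reachable tiles, as defined next, than the median protein-coding gene, which had 10.

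RRBS reads only the ends of short MspI fragments, so most tiles are out of its reach. A tile was called reachable when it held a CpG within 50 bp of either end of an MspI fragment of 40 to 220 bp in the reference sequence. This stands in for the tiles tested, which the tables do not give. Of 951 tiles over the 10 genes 288 were reachable. Of these, 9.72% were listed in the knockdown comparison (95% Wilson interval 6.81 to 13.7), against 12.5% of the 383358 reachable tiles of chromosomes 1 to 22 and X. In the knockout comparison 6.94% were listed (4.54 to 10.5), against 6.67%, and in the mix 5.56% (3.45 to 8.83), against 5.18%. In any comparison the share was 15.6% (11.9 to 20.3), against 17.4%. All of these intervals held the background share. For the knockdown comparison this was so only with DNMT3L included, a gene set apart after its values were seen, as described with that gene. The intervals cover counting error only, and neighbouring tiles are not independent.

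Among the families, the DNMT genes had 28 of 145 reachable tiles listed in any comparison, or 19.3%, beside the 17.4% of all reachable tiles. DNMT3L held 10 of these 28, and the other 3 DNMT genes had 18 of 126, or 14.3% (9.23 to 21.5). The share was 11.4% for the TET genes, 12.3% for the UHRF genes and 12.5% for TDG. The intervals of these shares overlapped, since that of the DNMT genes ran from 13.7% to 26.5% and that of the TET genes from 5.91% to 21.0%.

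**Figure D1:**
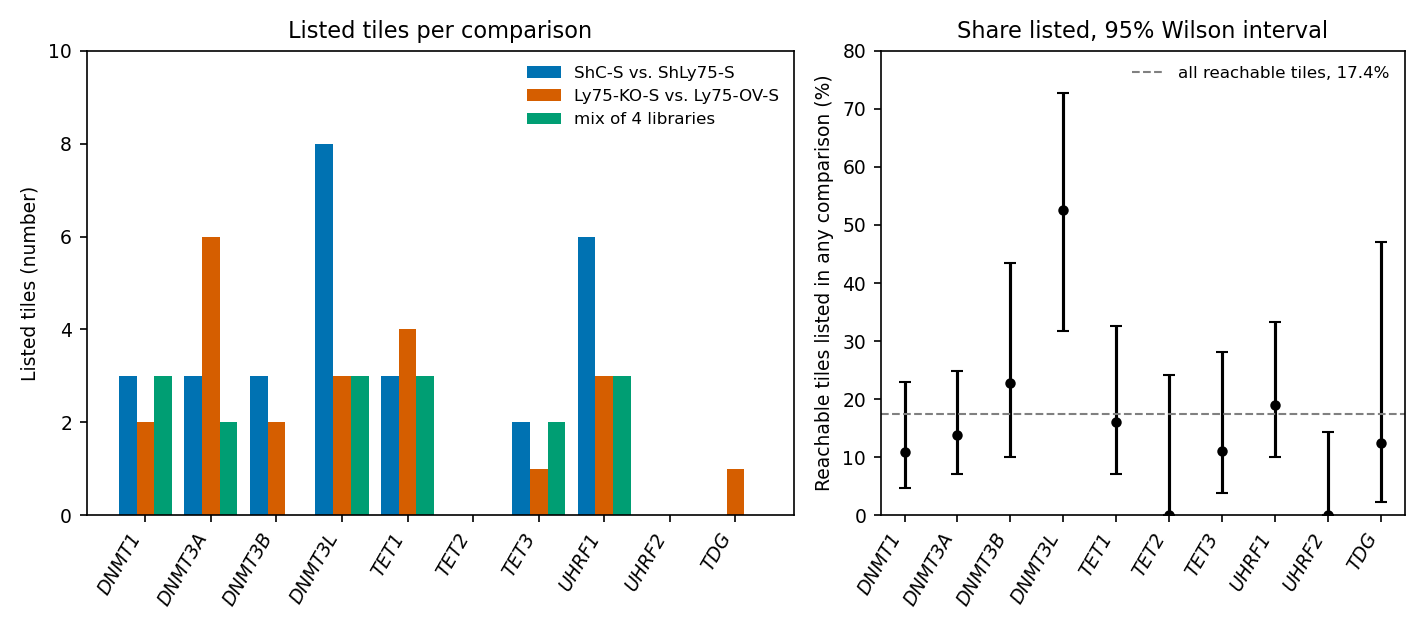
Left, the number of tiles of 1 kb listed at each gene (bars) in each comparison. Right, the percentage of reachable tiles listed in any comparison (points) with 95% Wilson intervals, which cover counting error only, and the share over all reachable tiles (dashed line, 17.4%). DNMT3L stands highest with 52.6%, and TET2 and UHRF2 are at 0.

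The single comparisons shared no library, and 4 member tiles were listed in both of them. These were 14.3% of the knockdown tiles and 18.2% of the knockout tiles of the 10 genes. Over all tiles, 8344 were shared, which made 16.3% and 29.5% of the respective tables. Among reachable tiles the share listed in both was 1.39% at the 10 genes and 2.03% overall. Each of the 4 tiles belonged to another gene, namely DNMT1, DNMT3A, DNMT3L and UHRF1, and the first 2 and the UHRF1 tile were listed in the mix too. The mix uses the same 4 libraries, so its listing is no independent observation. Nor were the single comparisons independent by lineage, since Ly75-OV-S was made from the shRNA-suppressed cells. Direction was not used, so a tile listed in both need not have differed the same way.

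The MspI fragments of 40 to 220 bp of the DNMT1 and UHRF1 tiles are given below, as examples of the places at the 10 genes where both single comparisons listed a difference. Each is given on the plus strand of hg19, and the capitals mark CpGs, the positions whose methylation the assay reads.
DNMT1, chr19:10307493-10307562: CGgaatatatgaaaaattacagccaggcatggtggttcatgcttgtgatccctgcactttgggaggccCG
UHRF1, chr19:4915394-4915476: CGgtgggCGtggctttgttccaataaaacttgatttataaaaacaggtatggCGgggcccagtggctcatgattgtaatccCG

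The fragments of all 4 tiles read alike in part. In each tile a fragment held, on one strand or the other, at least 1 of the words TTGGGAGGC and TGTAATCCC, which lie close together without overlap in the consensus of Alu, the most abundant short interspersed repeat of the human genome. The words were chosen after these fragments had been read, so the count of 4 in 4 is a description. Among all reachable tiles listed in both single comparisons, 1221 of 7796 held such a word inside a fragment, or 15.7%. Words of this kind were otherwise less frequent in listed than in unlisted tiles. They were found in 11 of 45 listed and 93 of 243 unlisted reachable tiles at the 10 genes, or 24.4% and 38.3%, and in 17.1% and 36.3% of all reachable tiles. The DNMT3A and DNMT3L tiles had more than 1 fragment, and without read counts it is not known which of them carried the difference. RRBS reads of 50 bp from repeats can map to many places, and how such reads were treated was not tested.

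**Figure D2:**
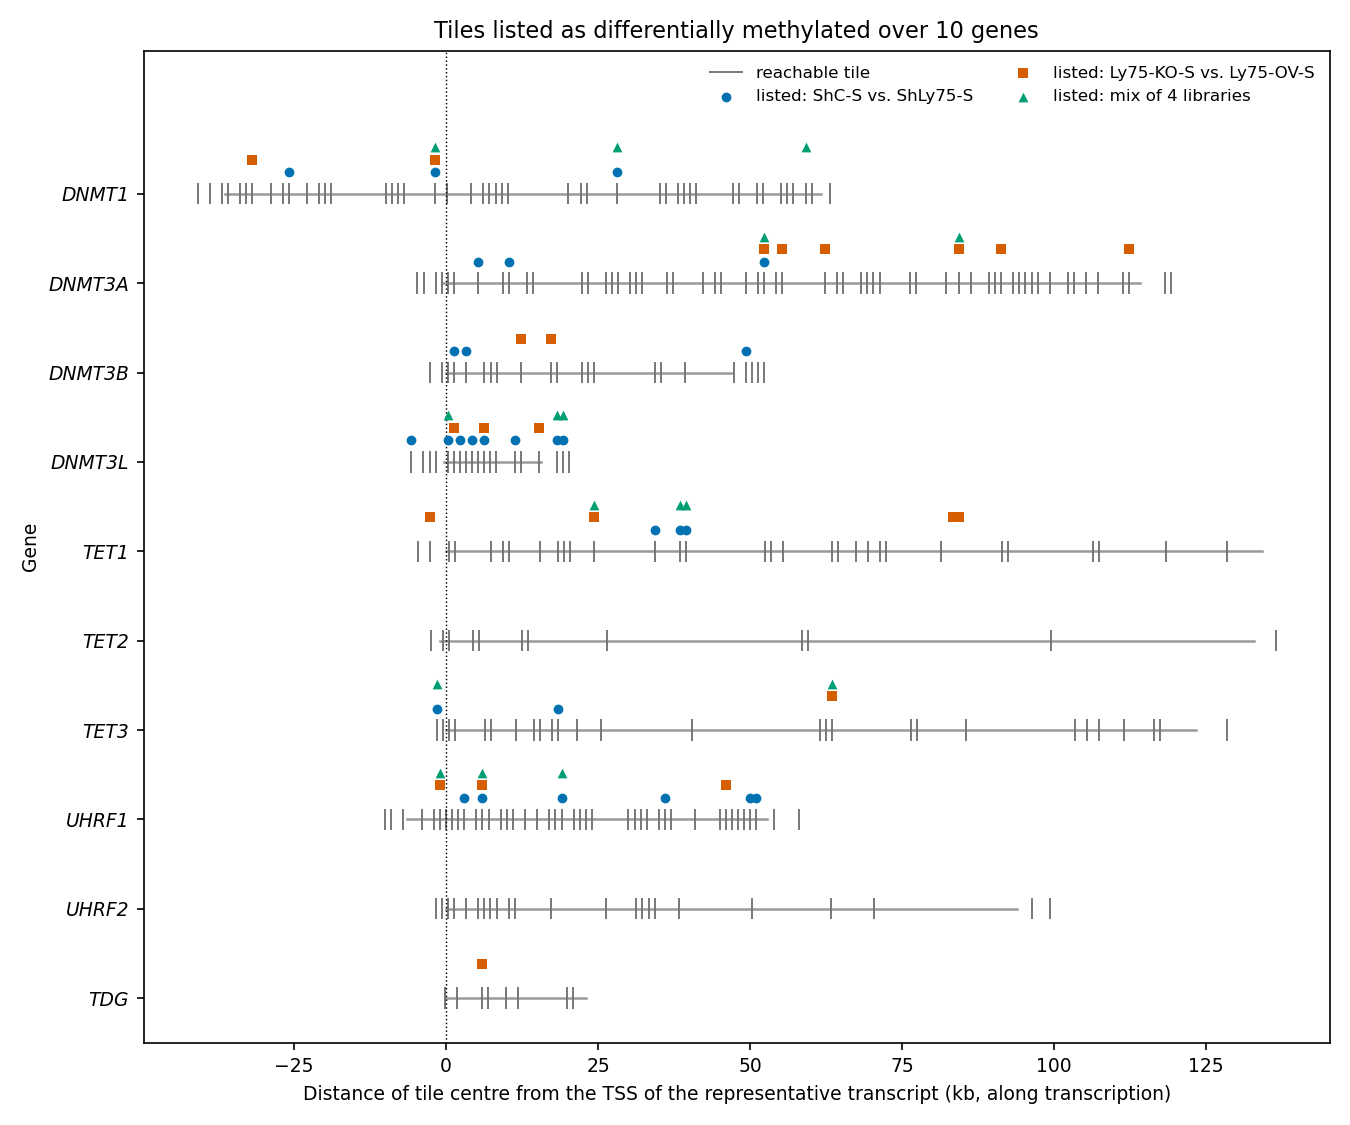
Tiles over the 10 genes by the distance of their centre from the TSS of the representative transcript, in kb along transcription. Grey lines are the gene spans, grey ticks the reachable tiles, and symbols the tiles listed in each comparison. Only at DNMT1, DNMT3A, DNMT3L and UHRF1 do symbols of both single comparisons stand over the same tile.

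DNMT1, the maintenance methyltransferase (chr19:10244018-10341962, minus strand), had 46 reachable tiles, and 5 tiles were listed. The tile shared by all 3 comparisons, chr19:10307001-10308000, lay 1190 bp upstream of the TSS of DNMT1-201 and had 13 CpGs. The tile chr19:10277001-10278000, over coding exon 11 of the representative transcript, was listed in the knockdown comparison and the mix. At chr19:10246001-10247000, over coding exons 38 and 39 of 41, a tile with 45 CpGs was listed in the mix alone, the single case of this kind among the 47. The other 2, chr19:10331001-10332000 (knockdown) and chr19:10337001-10338000 (knockout), lie inside the annotated span only through long transcript models outside the basic set. They were 25190 and 31190 bp upstream of the nearest basic TSS, and the latter lies in an intron of S1PR2.

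UHRF1, the reader of hemimethylated CpGs that recruits DNMT1 (chr19:4903092-4962165, plus strand), had 8 listed tiles among 42 reachable ones. In the knockdown comparison 6 were listed, and in the knockout comparison 3. The 3 tiles nearest to its start were chr19:4908001-4909000, 442 bp upstream of the TSS of UHRF1-205 (knockout and mix), chr19:4912001-4913000 in intron 2 (knockdown) and the shared tile chr19:4915001-4916000, also in intron 2. A further tile of intron 2, chr19:4928001-4929000, was listed in the knockdown comparison and the mix. Towards the 3′ end, chr19:4945001-4946000 over coding exon 10, chr19:4959001-4960000 in intron 17 and chr19:4960001-4961000 over coding exon 18 were listed in the knockdown comparison alone. The tile chr19:4955001-4956000 in intron 16 was listed in the knockout comparison alone. The tiles of the 2 comparisons were thus interspersed along the gene and met at 1 place, an arrangement of few tiles that was not tested.

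UHRF2, the paralogue of UHRF1 (chr9:6413151-6507054, plus strand), had 23 reachable tiles and none was listed in any comparison. Its TSS tile held 115 CpGs, of which 72 were reachable. An unlisted tile may have differed by less than the limit or may not have been covered, and the tables do not separate these cases.

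DNMT3A, a de novo methyltransferase (chr2:25450724-25565459, minus strand), had 58 reachable tiles, the most of the 10 genes, and 8 listed ones. The knockout comparison listed 6 and the knockdown comparison 3. The 3 knockdown tiles lay in the 5′ part, at chr2:25559001-25560000 and chr2:25554001-25555000 in intron 1, which were 4794 and 9794 bp downstream of the representative TSS, and at the shared tile chr2:25512001-25513000 in intron 3. From that shared tile onwards all listed tiles belonged to the knockout comparison. They were chr2:25509001-25510000 in intron 3, chr2:25502001-25503000 in intron 4, chr2:25480001-25481000 in intron 6 (with the mix), chr2:25473001-25474000, also in intron 6 and 1001 bp downstream of the TSS of DNMT3A-217, and chr2:25452001-25453000 over the non-coding part of exon 23. At DNMT3A, then, the listed tiles of the single comparisons occupied separate stretches that met at the shared intronic tile. This describes few tiles, and the arrangement was not tested.

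DNMT3B, the other de novo methyltransferase (chr20:31350191-31397165, plus strand), had 5 listed tiles among 22 reachable ones, none of them in the mix and none shared. In the knockdown comparison these were chr20:31351001-31352000 and chr20:31353001-31354000, both in intron 1, and chr20:31399001-31400000 in the 3′ flank. The first of them began 810 bp downstream of the representative TSS and held 43 CpGs. In the knockout comparison they were chr20:31362001-31363000 in intron 1 and chr20:31367001-31368000, which holds the internal TSS of DNMT3B-201 and coding sequence. The tile of the representative TSS itself, chr20:31350001-31351000, held 107 CpGs, 90 of them reachable, and was not listed. A fragment of the listed tile just inside the gene is shown as the one nearest to that unlisted CpG-rich start, again on the plus strand of hg19 with CpGs in capitals.
Listed in the knockdown comparison, chr20:31351143-31351216: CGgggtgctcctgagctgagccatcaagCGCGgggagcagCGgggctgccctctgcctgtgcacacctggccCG

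This fragment carried 5 CpGs in 74 bp.

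DNMT3L, the catalytically inactive partner of the de novo enzymes (chr21:45666222-45682099, minus strand), was the shortest of the 10 genes and had the most listed tiles, 10 of its 19 reachable ones or 52.6%. The next share was that of DNMT3B at 22.7%. The knockdown comparison listed 8, the knockout comparison 3 and the mix 3. DNMT3L is set apart here with its values already seen, and no test was made of it. Without it, 7.43% of the reachable tiles of the other 9 genes were listed in the knockdown comparison (4.86 to 11.2), an interval below the 12.5% of all reachable tiles. Leaving out the gene with the highest share lowers the rest by construction, so no depletion at the other 9 genes can be read from it. In the knockout comparison 6.32% were listed (3.98 to 9.89), against 6.67%, and in the mix 4.83% (2.85 to 8.09), against 5.18%.

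Of the 10 DNMT3L tiles, 7 overlapped the gene. The tile of the representative TSS, chr21:45681001-45682000, over exons 1 and 2, was listed in the knockdown comparison and the mix. Next to it, chr21:45680001-45681000 over exon 3 was listed in the knockout comparison and chr21:45679001-45680000 over exons 4 and 5 in the knockdown comparison. Further in, chr21:45677001-45678000 in intron 6 and chr21:45670001-45671000 over coding exon 10 were listed in the knockdown comparison, and the latter also lies within 2 kb of the TSS of the antisense gene DNMT3L-AS1. The tile shared by the single comparisons, chr21:45675001-45676000 over coding exon 7, was not listed in the mix. The last exon, exon 12, lay in chr21:45666001-45667000, which was listed in the knockout comparison. In the flanks, chr21:45687001-45688000 was listed in the knockdown comparison, and the adjoining chr21:45662001-45663000 and chr21:45663001-45664000 in the knockdown comparison and the mix. That adjoining pair lies within 2 kb of a TSS of the neighbouring gene ICOSLG, which encodes a T cell costimulatory ligand, so it belongs to the promoter region of another gene.

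**Figure D3:**
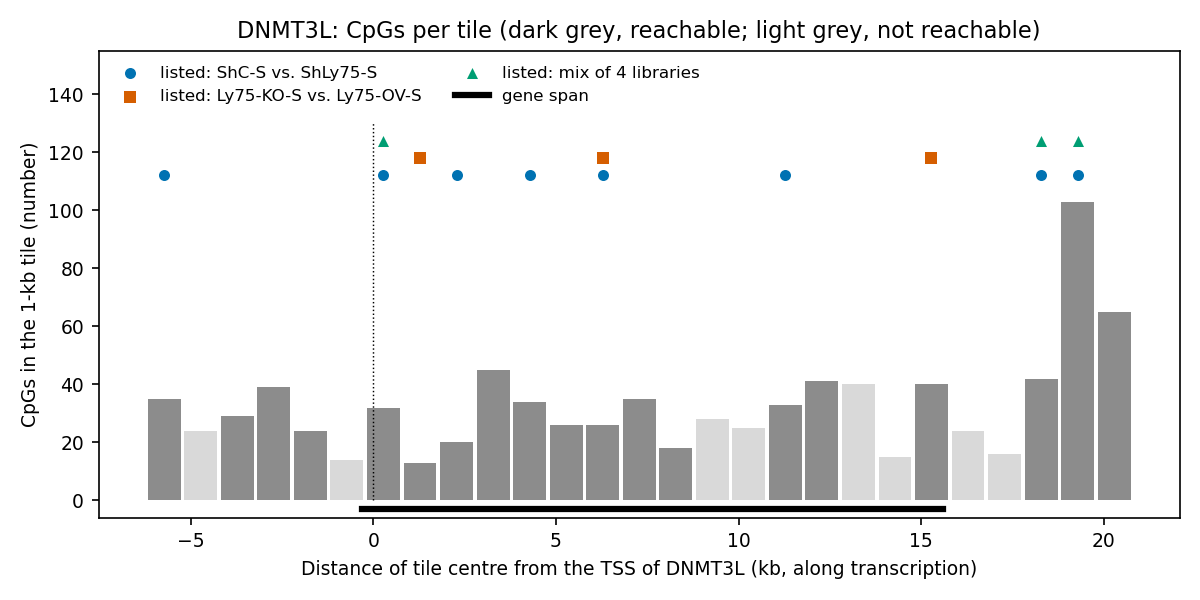
CpGs per tile of 1 kb (bars, dark grey where reachable) along DNMT3L by distance from its TSS in kb, with symbols over the tiles listed in each comparison and the gene span as a black line. Listed tiles run along the whole gene, and the bar of 103 CpGs beyond its 3′ end is the ICOSLG promoter tile.

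TET1, a dioxygenase that oxidises methylated cytosine and carries a CXXC domain (chr10:70320094-70454244, plus strand), had 7 listed tiles. The knockdown comparison listed 3, all in intron 2, at chr10:70354001-70355000, chr10:70358001-70359000 and the adjoining chr10:70359001-70360000, and the mix listed the adjoining pair too. The knockout comparison listed 4 others. These were chr10:70317001-70318000, 2094 bp upstream of the only basic TSS, chr10:70344001-70345000 in intron 2 (with the mix), chr10:70403001-70404000 in intron 3 and the adjoining chr10:70404001-70405000 over coding exon 4. The last pair held no reachable CpG by the rule used here, so they were read through fragments that the rule leaves out.

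TET3, the TET enzyme best known from the zygote (chr2:74212037-74335303, plus strand), had 3 listed tiles among 27 reachable ones. The tile chr2:74210001-74211000, 1037 bp upstream of the representative TSS, was listed in the knockdown comparison and the mix, and it also lies within 2 kb of a TSS of DGUOK-AS1. The tile chr2:74230001-74231000 over coding exon 3 began 161 bp downstream of the internal TSS of TET3-201 and was listed in the knockdown comparison. Coding exon 4 lay in chr2:74275001-74276000, listed in the knockout comparison and the mix. None of the 3 was shared between the single comparisons.

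TET2, the TET enzyme without a CXXC domain of its own (chr4:106067032-106200973, plus strand), had no listed tile. With 12 reachable tiles of 144, or 8.33%, it was the gene that RRBS could read least by share. TDG, the glycosylase that removes oxidised methylcytosines (chr12:104359600-104382652, plus strand), had 8 reachable tiles and 1 listed tile, chr12:104365001-104366000 in intron 1, in the knockout comparison. Among all protein-coding genes the median was 10 reachable tiles, with quartiles of 6 and 18. These 2 erasers thus had a number of reachable tiles common for a gene, while DNMT3A, DNMT1 and UHRF1 had many more. How many of them were covered by reads is not known.

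By position, 11 of the 47 tiles lay within 2 kb of a TSS of a basic transcript, 10 in exons beyond that distance, 21 in introns and 5 in the flanks. Of the reachable tiles within 2 kb of a TSS, 24.4% were listed in any comparison, against 19.0% over all protein-coding genes. Of the 5 such tiles at DNMT3L, chr21:45679001-45680000, chr21:45680001-45681000 and chr21:45681001-45682000 were listed, which raised the share. It was not computed without DNMT3L. For the other exons the share was 14.1% against 17.4%, for introns 13.2% against 14.8%, and for the flanks 17.9% against 17.2%. At the 10 genes a tile was placed by its own gene only. Over all protein-coding genes it took the first class in this order at any gene, so the sides are not strictly alike. The adjoining pair at ICOSLG, for instance, counted as flank of DNMT3L on the first side and as TSS region on the second. No test was made of these differences. With TSSs counted within 1 kb, 6 of the 47 tiles were at a TSS, and with the representative transcript alone 7 were, so many of the tiles near a TSS belonged to alternative or distant starts.

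At the start sites themselves few tiles were listed. The tile that holds the representative TSS was listed for DNMT3L alone, in the knockdown comparison and the mix, and for none of the other 9 genes. Over the 14653 reachable tiles that hold the representative TSS of a protein-coding gene, 13.6% were listed in the knockdown comparison, 3.24% in the knockout comparison, 6.03% in the mix and 15.8% in any of them, so 1 in 10 is near that level. For DNMT1, DNMT3A, DNMT3B, TET1, TET3, UHRF1, UHRF2 and TDG the TSS tile was rich in CpGs, from 67 at TDG to 150 at DNMT3A. The TSS tile of TET2 held 31 CpGs and that of DNMT3L 32. The TSS of TET2 lies close to the edge of its tile, however. The adjoining tile upstream, also in the TSS region, held 97 CpGs, 57 of them reachable, and was not listed.

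CpG density was followed over all reachable tiles of the 10 genes. A tile was called CpG-dense at a GC content of at least 50% and an observed to expected CpG ratio of at least 0.6, a common description of CpG islands. Of 23 such tiles 1 was listed, the ICOSLG promoter tile beside DNMT3L, or 4.35%, against 18.8% of all CpG-dense reachable tiles. Of the remaining 265, 44 were listed, or 16.6%, against 17.3%. Hence no CpG-dense tile inside any of the 10 genes was listed. The number of dense tiles is small, and no test was made of this difference.

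**Figure D4:**
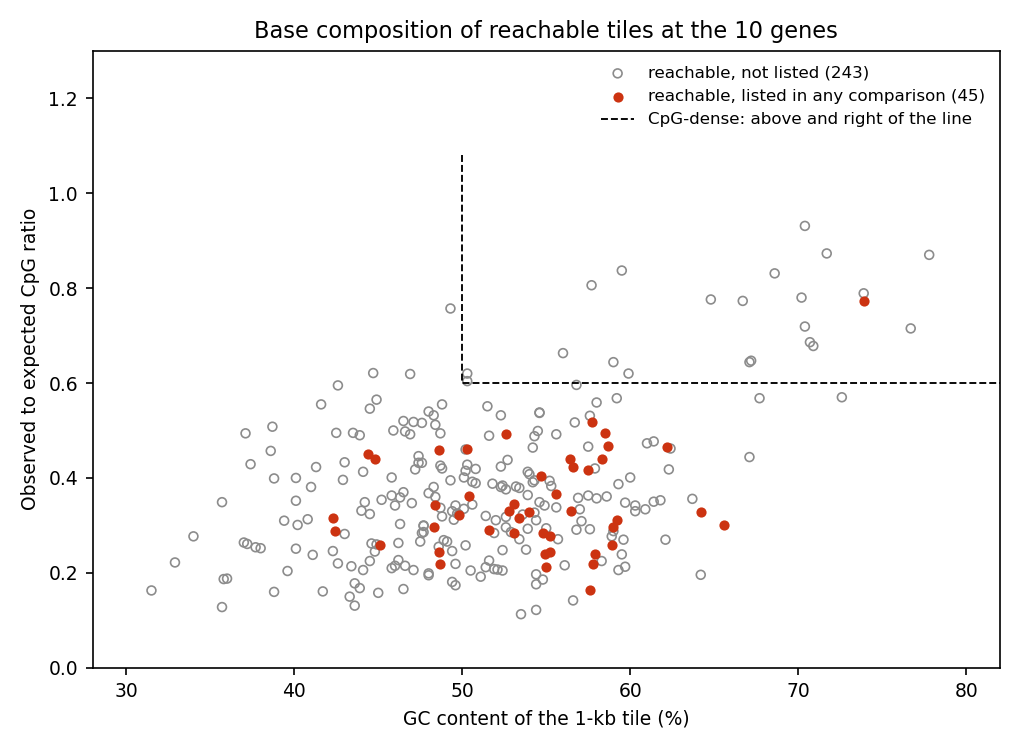
GC content (%) and observed to expected CpG ratio of the 288 reachable tiles at the 10 genes, filled where listed in any comparison. The unlisted TSS tile of DNMT3A, with a GC content of 83.5%, lies beyond the right edge and is not drawn. Of the 23 CpG-dense tiles, that one included, 1 is filled, and the other listed tiles lie among those of lower CpG ratio.

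The single comparisons could also be set side by side for each gene. Of the 47 tiles, 16 were listed in the knockdown comparison alone, 14 in the knockout comparison alone, 8 in the knockdown comparison and the mix, 4 in the knockout comparison and the mix, 3 in all and 1 in both single comparisons without the mix. The remaining tile was the mix-only tile of DNMT1. Listed tiles of the knockdown comparison held a median of 25 CpGs (13 to 103), and those of the knockout comparison 18.5 (10 to 40). The tile of 103 CpGs was the ICOSLG promoter tile. Over all reachable tiles, the knockdown comparison listed 16.5% of the CpG-dense ones and 12.2% of the others. In the knockout comparison these shares were 2.9% and 6.96%, so a contrast in CpG content was not particular to the 10 genes.

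The proteins that read methylation, assist the enzymes or supply their cofactors were followed with a list of 33 related genes. A listed tile lay at 20 of them in the knockdown comparison, 15 in the knockout comparison, 14 in the mix and 25 in any of them, to be read beside the background of all protein-coding genes given above. All 8 genes grouped here as methyl-CpG readers had a listed tile in any comparison, beside 70.7% of all protein-coding genes. No test was made of this. Among those with a listed tile near a TSS were ZBTB33 (Kaiso), MBD4, ZBTB4 and ZBTB38. The MBD4 tile, chr3:129157001-129158000, also lies in the TSS region of IFT122, and the ZBTB38 tile, chr3:141087001-141088000, in that of ENSG00000249417. At ZBTB4, the tile chr17:7386001-7387000 also lies in the TSS regions of POLR2A and SLC35G6. Some tiles belong to neighbours, as chr18:47813001-47814000 in the flank of MBD1 lies in the TSS region of CXXC1 and was counted for both. ZBTB33 had a CpG-dense tile of 64 CpGs at its TSS, chrX:119384001-119385000, and the adjoining tile, both listed in the knockdown comparison and the mix. The single comparisons shared 2 tiles at MBD3, a subunit of the NuRD complex, at chr19:1571001-1572000 in the 3′ flank and chr19:1578001-1579000 over an exon, and 1 at ZBTB4, at chr17:7380001-7381000, 1950 bp downstream of a TSS.

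Among partners of maintenance and recruitment, 6 of 9 genes had a listed tile in any comparison, beside 70.7% of all protein-coding genes. None of their tiles was shared by the single comparisons. CpG-dense TSS tiles were listed for TRIM28, the corepressor of zinc finger proteins (chr19:59055001-59056000, 96 CpGs, mix alone), and for ZFP57, which protects imprinted regions (chr6:29648001-29649000, 60 CpGs, knockdown and mix). The ligase LIG1 had a tile 141 bp upstream of a TSS in the knockdown comparison and a CpG-dense one further upstream in the mix, both at the neighbouring start of ZSWIM9. DPPA3, a protector of the maternal genome, had a CpG-dense tile 972 bp into the gene in the knockdown comparison, and CDCA7 had a tile of 17 CpGs within 2 kb of a TSS in the knockout comparison. HELLS, QSER1 and TRDMT1 had none.

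Of the CXXC proteins, CXXC1 had a CpG-dense tile of 61 CpGs beside its TSS in the knockdown comparison and the mix. CXXC5, which binds unmethylated CpGs, had 21 reachable tiles and 9 listed ones, not all of the latter reachable. A CpG-dense one of 73 CpGs lay at a TSS and was listed in the knockdown comparison. The intronic tile chr5:139044001-139045000 was listed in both single comparisons. CXXC4 had no reachable tile and none listed. In base excision repair and deamination 6 of 8 genes had a listed tile in any comparison, beside 70.7% of all protein-coding genes. SMUG1, a uracil glycosylase, had 23 reachable tiles and 7 listed ones, not all of the latter reachable. Of these the single comparisons shared chr12:54541001-54542000 and chr12:54587001-54588000. The first lies in the annotated span but outside the representative transcript, 40391 bp from the nearest basic TSS of SMUG1. It overlaps an exon of LINC02381 and lies within 2 kb of a TSS of ENSG00000260470. The second lies upstream of the gene. The listed tiles chr12:54520001-54521000 and chr12:54521001-54522000 lie within 2 kb of TSSs of LINC02381 and FAM242C. Near a TSS lay 1 tile each of SMUG1, APEX1, PARP1, GADD45A and GADD45B, and XRCC1 had no listed tile. Of the genes of cofactor supply, MAT2A, an S-adenosylmethionine synthetase, had 1 tile shared by the single comparisons, chr2:85775001-85776000 in the 3′ flank over an exon of GGCX, IDH2 had 1 listed tile 292 bp upstream of a TSS, and AHCY and IDH1 had none.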

How the data were processed

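Genomic DNA of the 4 SKOV3 clones was cut with MspI, treated with bisulfite and read as single reads of 50 bp. Per the labels and the submitters' processing notes, reads were trimmed (Trim Galore 0.4.1 in the notes, Trimmomatic in the protocol), aligned to hg19 with Bismark 0.16.1 and compared with methylKit in tiles of 1000 bp. The smallest coverage accepted, and whether the mix pooled its libraries, are not given in the sources used here. The 3 deposited tables hold tile positions and, as comparisons made by the authors, a p-value, a q-value and a difference in percent methylation. Only the positions were used here, so no count test applied.

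Gene spans and transcripts were taken from GENCODE release 44 mapped to GRCh37, whose chromosome 1 of 249250621 bases is that of hg19. Positions followed the order TSS region (within 2 kb of a TSS of a basic transcript), exon, intron, flank. The representative transcript was the Ensembl canonical one. MspI fragments were cut in silico, and the digest was tested on simulated sequence. All 10 members were named, and related genes where a tile was shared by the single comparisons or near a TSS. The members and gene lists were chosen with earlier results of these data known. Chromosome Y was left out. Alternatives changed the extension, the overlap, the fragment range, the TSS window and the transcripts. Tables were made with pandas 2.3.3 and numpy 2.4.6 under Python 3.11.15, intervals with scipy 1.17.1 and plots with matplotlib 3.10.9. Some sequences and related genes are not reported here.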

Additional observations from a re-analysis of the deposited data

How the results depend on the processing

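Of 72 recomputed counts and shares, 68 stayed within 1.5 times the value given, or within the Wilson interval of a share. Among them were all of the numbers of listed tiles, of genes with a listed tile and of tiles shared by the single comparisons at the 10 genes, and all of the shares of reachable tiles. The background shares were not recomputed, so the shares of the 10 genes were not set against a background under the alternatives. The knockdown share without DNMT3L, 7.43%, counted as unchanged, although its own interval lay below the 12.5% of all reachable tiles. That gene was left out after its values were seen, which lowers the rest by construction. The number of listed tiles within 2 kb of a TSS was 11, and it fell to 6 with a window of 1 kb and to 7 with 1 representative transcript per gene, since fewer bases or fewer TSSs then counted. With all transcript models, an alternative chosen after seeing the data, the tiles counted as exon without a nearby TSS went from 10 to 6, as more TSSs were counted. Of the related genes, 15 had a listed tile in the knockout comparison, and 9 when the gene spans were not extended. With DNMT3L left out or tiles at the TSS of another gene left out, both chosen after seeing the data, the numbers of listed tiles ranged from 20 to 24 in the knockdown comparison, from 19 to 21 in the knockout comparison and were 13 in the mix. No paired analysis was possible because only tile positions were used, with no value per library, so the result comes from no test and no library could be left out. The depth of the libraries is unknown, so unlisted tiles set no limit on a difference.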
